A study of Mus musculus with 16 samples.

Results

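Gene expression of mouse bone-marrow derived macrophages was compared 6 h into interferon-gamma stimulation between cells that had been pretreated and cells that had not. The comparison set 2 arrays of pretreated cells at 6 h against 2 arrays of naive cells at 6 h, 4 of the 16 arrays of the series, chosen from their sample labels and all from 1 array set by the numbering in their titles. It asks which genes ended higher or lower after the second stimulation than after a first one. All cells of the series came from H3.3-HA knock-in mice, which carry HA-tagged histone H3.3, and were grown from marrow with L-cell conditioned medium, so the controls carry the tag too. The groups used here were pretreated cells at 0 h (4 arrays), 3 h (2 arrays) and 6 h (2 arrays) and naive cells at 0 h (4 arrays), 3 h (2 arrays) and 6 h (2 arrays). Of these, array set 1 held the 6 h arrays and 2 arrays of each group at 0 h, and set 2 held the 3 h arrays and the other 0 h arrays. That the earlier agent was interferon is read from a title token. The labels give neither its dose and length, nor a rest period, nor the age and sex of the mice. No cells without interferon were sampled at 6 h, and nothing in the labels tells whether 2 replicates came from separate mice or dishes. The p-values then reflect just the spread among these arrays, part of which may be technical.

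Interferon-gamma binds a receptor on macrophages whose associated JAK kinases start a signal to the nucleus that acts through GAS elements in promoters. Its targets include guanylate-binding proteins and immunity-related GTPases that attack vacuoles of pathogens, antigen presentation genes and chemokines that attract T cells, while suppressors of cytokine signalling feed back on the pathway. The cytokine is also known to slow the division of macrophages that grow in colony-stimulating factor from L-cell medium. A second exposure can meet cells that still carry products or chromatin marks of the first one, and histone H3.3, which is deposited outside DNA replication, has been studied as such a mark.

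Macrophage markers were high in both groups: the 9 measured, among them Csf1r and Cd68, had mean log2 intensities of 10.98 to 13.73 in pretreated and 11.13 to 13.77 in naive cells at 6 h, and none was called. Of 40 markers of 9 other cell types, 16 lay under the dim limit of 6.5 in both groups. Only Ocstamp, an osteoclast fusion gene, was called among them. The neutrophil gene Csf3r (11.0 in pretreated and 10.68 in naive cells) and the B cell gene Cd79b (8.94 in pretreated and 8.54 in naive cells) stood high among them. The summed log2 level of the 4 osteoclast markers was 28.7 to 29.0 in pretreated and 27.5 to 28.2 in naive arrays. Of these 4, Ocstamp differed by 0.93, while Ctsk (-0.05), Acp5 (0.06) and Calcr (0.05) were near level. The sums also did not overlap for B cell markers (25.7 to 25.8 in pretreated and 25.1 to 25.2 in naive arrays). The same held for neutrophil markers (49.1 to 50.1 in pretreated and 48.4 to 49.0 in naive arrays). The part of such cells in the results was not tested. In these bulk samples fewer cells of a type and less RNA per cell cannot be told apart.

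The 4 arrays did not fall cleanly into 2 pairs. The pretreated arrays correlated across genes at 0.995 and the naive arrays at 0.9919, but naive replicate 2 correlated more closely with pretreated replicate 2 (0.9936) than with its own partner. Between the naive arrays 241 genes lay over 1 log2 unit apart, against 77 between the pretreated arrays. Naive replicate 1 was the naive array farther from the pretreated mean for 45 of the 54 genes called lower below. For the 86 called higher it was so for 47, near an even split. The share over all genes was not taken. Across genes, naive replicate 1 also correlated less with the 2 pretreated arrays (0.9886 and 0.9853) than naive replicate 2 did (0.9912 and 0.9936). The count of 45 is thus not shown to be particular to the lower genes. The counts of calls at 6 h are therefore also given with single arrays left out. This is done for all genes and for the lists of mitosis, chemokines, NF-kB and TLR genes and macrophage activation effectors.

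After 6 h, pretreated cells had 86 genes above and 54 genes below the level of naive cells. The higher genes were led by Inpp5j, Plac8, the receptors Slamf9 and Havcr2 and the histone H2ac4. Genes of mitosis such as Plk1 and Kif20a were also among them. The lower genes were led by the transcription factor Egr2, the chemokines Cxcl2 and Cxcl11, the glycolipid receptor Clec4e and the Ras activator Rasgrp1. No interferon-inducible GTPase and no MHC gene of the lists was called. Differences are given as log2 values, pretreated minus naive, with the standard error from 1 limma fit to all 16 arrays after ±. A gene was called at an adjusted p under 0.05 by limma with Benjamini-Hochberg adjustment over 19938 genes.

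The 86 higher genes were 0.431% of those tested and the 54 lower genes 0.271%. Higher calls ran up to a difference of 1.81, with a median of 0.88 and 32 genes at 2-fold or more. Lower calls reached -2.45, with a median of -1.17 and 35 genes at 2-fold or more. The median of all genes was 0.02, and 2458 genes (12.3%) had an unadjusted p under 0.05. The 2 groups did not overlap for any called gene. A call already favours genes whose arrays lie apart, so this is no separate support for the calls. An exact two-sided permutation test on 2 against 2 arrays cannot go below p = 0.333, so the calls rest on the variance shared over the fit. Leaving out pretreated replicate 1 gave 11 higher and 11 lower calls, and leaving out pretreated replicate 2 gave 6 and 7. With naive replicate 1 left out there were 10 and 8, and with naive replicate 2 left out 192 and 214. Leaving out naive 0 h replicate 1 or 2, which enter only through the shared variance, also brought the higher count to 49. The labels give no replicate numbers, but the title numbers fall into a first and a second run of 4 arrays in each set, and the arrays of a run shifted together (correlations of 0.152 to 0.662 over the 6 pairs of groups in set 1). With this half-set as a block, 556 genes were higher and 289 lower, among them all 140 above. That fit also called 15 of the genes given below as not called: Bub1, Rrm2, Chaf1b, Il10, H2-Eb1, Gm10874 and Ptger1 higher, and Jak2, Nfkbie, Tnfaip3, Gch1, Vcam1, Cd40, Idi1 and Sqle lower. A gene described as not called is thus one that did not pass without the block. The calls of 5 higher genes (Plac8, Havcr2, Plk1, Lpxn and Kif18b) and 7 lower genes (Rasgrp1, C1s1, Trim13, Fas, Il18rap, 4930523C07Rik and Csrnp1) held with any 1 of the 4 arrays left out.

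**Figure D1:**
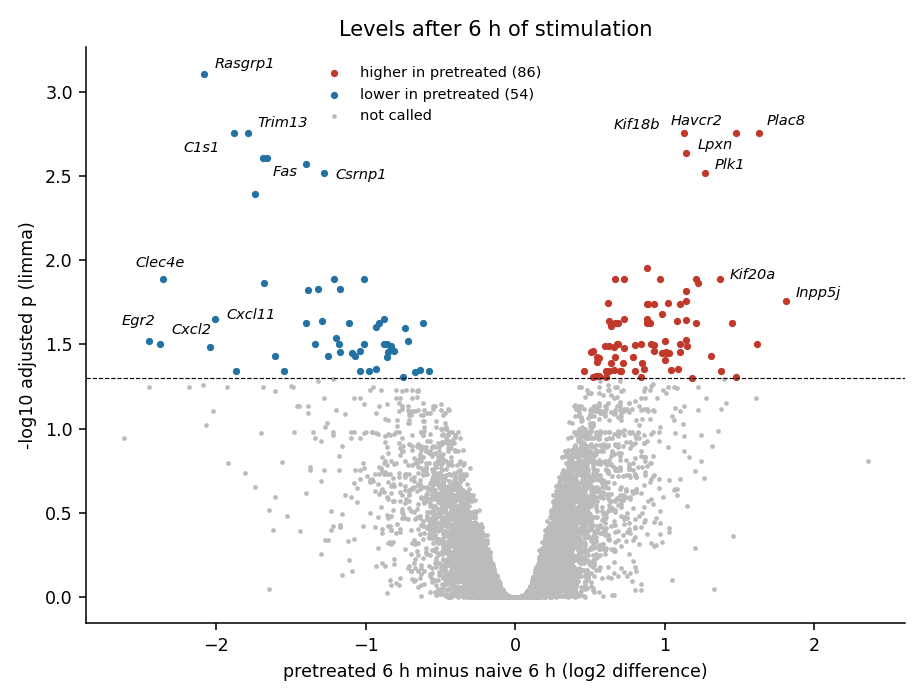
Each point is 1 gene, with the log2 difference of pretreated 6 h minus naive 6 h on the x axis and -log10 of limma's adjusted p on the y axis, and the dashed line marks 0.05. The 86 higher genes (red) stay within a difference of 1.81, while the 54 lower genes (blue) reach -2.45 for Egr2, and Rasgrp1 stands at the top with a difference of -2.08.

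**Figure D2:**
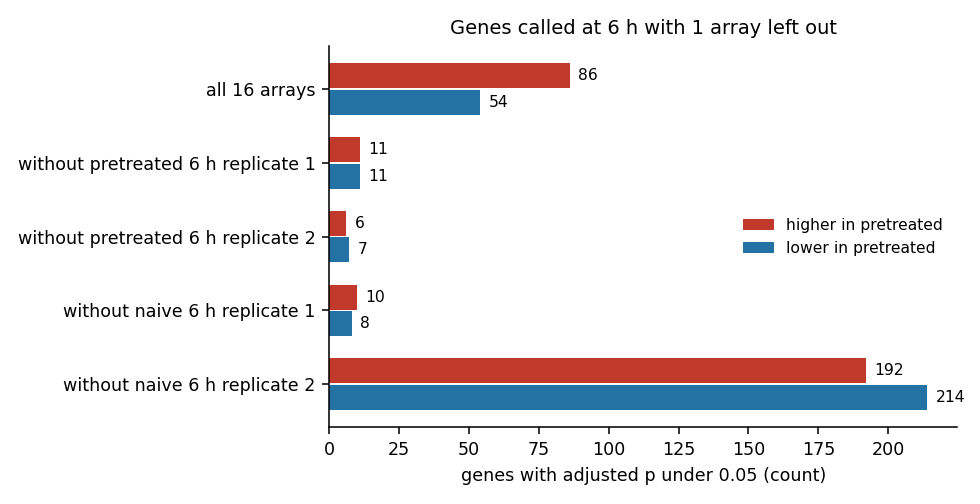
Bars show the number of genes called higher (red) and lower (blue) in pretreated cells at 6 h with all 16 arrays and with each of the 4 arrays of the comparison left out. The counts of 86 and 54 drop to between 6 and 11 without any of 3 arrays and rise to 192 and 214 without naive replicate 2.

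Plac8, which encodes a small cysteine-rich protein of myeloid cells, had log2 intensities of 9.02 and 9.48 in pretreated arrays at 6 h and 7.48 and 7.75 in naive arrays. Every pretreated value lay over a log2 unit above both naive ones, and the difference was 1.63 ± 0.17 (3.1-fold, adjusted p = 0.00175). Plac8 stood at a mean of 6.78 in pretreated and 6.05 in naive cells at 0 h, so it was higher at 6 h than at 0 h in both. Havcr2 encodes TIM-3, an inhibitory receptor of T cells and myeloid cells. It read 10.36 and 10.48 in pretreated arrays and 9.0 and 8.88 in naive arrays, a difference of 1.48 ± 0.16 (2.79-fold, adjusted p = 0.00175). At 0 h the 2 groups had stood close together for Havcr2, at 10.61 in pretreated and 10.44 in naive cells. Lpxn, the focal adhesion adaptor leupaxin, had the same shape, with 11.79 and 11.79 in pretreated and 10.7 and 10.6 in naive arrays (1.14 ± 0.12, adjusted p = 0.00231) and 12.32 in both groups at 0 h.

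The other receptors and signalling genes of the higher group lost the call in at least 1 left-out fit. Inpp5j, an inositol polyphosphate 5-phosphatase, had the largest difference of all called genes in this direction. It read 9.91 and 9.62 in pretreated arrays and 7.97 and 7.94 in naive arrays (1.81 ± 0.28, adjusted p = 0.0175). Slamf9, a receptor of the SLAM family, had 11.2 and 11.26 in pretreated arrays against 9.68 and 9.55 in naive arrays (1.62 ± 0.29, adjusted p = 0.0313). Cysltr2, a receptor for cysteinyl leukotrienes, had 8.03 and 8.0 in pretreated arrays against 6.63 and 6.65 in naive arrays (1.38 ± 0.28, adjusted p = 0.0457). For these 3 genes the gap between groups was far wider than that within either pair of arrays, but their standard errors also hold the spread of arrays at other times. Ptpn22, a phosphatase known to restrain antigen receptor signalling in lymphocytes, was less tight, at 9.69 and 10.03 in pretreated and 7.96 and 8.86 in naive arrays (1.45 ± 0.24). The leukocyte protease Adam8 (1.21 ± 0.2) and the myeloid receptor Cd300ld (1.21 ± 0.17) were also called. Among genes picked after their values were seen, the endosomal sensors of nucleic acids Tlr8 (1.1 ± 0.21) and Tlr13 (0.93 ± 0.15) were higher, each with naive replicate 2 nearer to the pretreated arrays.

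Genes of mitosis and cell division held more of the higher calls than any other of the 26 lists. Of 47 measured genes on the list of mitosis and cell cycle, 11 were called higher and none lower, and all 47 differences were positive, with a median of 0.72 and 38 genes at an unadjusted p under 0.05. Across all genes 55.9% of differences were positive, with a median of 0.02. The 11 were the kinase Plk1, the cyclin Ccna2 and its kinase partner Cdk1, the kinesins Kif18b, Kif20a and Kif23, the cytokinesis factors Racgap1 and Ect2, the ubiquitin-conjugating enzyme Ube2c, and Cdca3 and Cdca5. The count was 6 without pretreated replicate 1, 2 without pretreated replicate 2, 2 without naive replicate 1 and 8 without naive replicate 2, with medians of 0.6 to 0.95. With the half-set block it was 24.

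Plk1, a kinase that drives entry into and passage through mitosis, was 1 of the 2 genes of this list whose call held in each of the 4 left-out fits. It had 9.39 and 9.85 in pretreated arrays at 6 h and 8.32 and 8.36 in naive arrays (1.27 ± 0.15, 2.42-fold, adjusted p = 0.00304). Kif20a, a kinesin of the central spindle, had 8.85 and 9.43 in pretreated arrays and 7.92 and 7.63 in naive arrays (1.37 ± 0.2, adjusted p = 0.0129). Kif18b, a kinesin of microtubule ends and the other such gene, had the tightest pairs of these 3, with 8.36 and 8.5 in pretreated arrays and 7.32 and 7.28 in naive arrays (1.13 ± 0.12, adjusted p = 0.00175). In all 3 genes the lower pretreated array stood clear of the higher naive one. Kif23 (1.15 ± 0.21) and Racgap1 (1.22 ± 0.18), which encode the subunits of the centralspindlin complex, were called as well. The checkpoint kinase Bub1 (1.13 ± 0.26, adjusted p = 0.0738) was not. Foxm1, a transcription factor of mitotic genes that is on no list and was picked after its value was seen, was higher by 1.1 ± 0.17.

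These genes stood lower at 6 h than at 0 h in both groups. Kif20a had a mean of 9.14 at 6 h and 10.92 at 0 h in pretreated cells, and 7.77 and 10.79 in naive cells. The median change from 0 h to 6 h over the 47 genes was -1.67 in pretreated and -1.99 in naive cells, 2 comparisons that share arrays with the one at 6 h. At 0 h the median difference between the groups was 0.37 in array set 1 and 0.17 over both sets. For none of the 47 did the difference at 6 h depart from that at 0 h in a test of the 2 differences, and with the half-set block it did for 2. At 3 h, on other arrays, the median difference was 0.05.

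DNA replication genes leaned the same way with few calls. Of 40 measured, Mcm7, a subunit of the replicative helicase, was called higher (9.59 and 9.09 in pretreated against 8.06 and 8.0 in naive arrays, 1.31 ± 0.25, adjusted p = 0.0368) and none lower. All 40 differences were positive with a median of 0.57, 14 were called with the half-set block, and Mcm7 lost its call without pretreated replicate 1 or 2 or naive replicate 1 or 2. The ribonucleotide reductase subunit Rrm2 was at 1.22 ± 0.26 (adjusted p = 0.0566). Of 20 measured genes for H3.3, histone chaperones and H3K36 methylation, 1 was called, the H3-H4 chaperone Asf1b, which also serves replication. On that list 7 genes had an unadjusted p under 0.05 in limma, and 3 were called higher with the half-set block. Asf1b had 9.88 and 9.69 in pretreated and 8.81 and 8.47 in naive arrays (1.14 ± 0.17, adjusted p = 0.0153), so the groups lay apart by more than their spread. The replication-coupled chaperone subunit Chaf1b (1.05 ± 0.26, adjusted p = 0.0842) and the H3.3 chaperone Daxx (-0.44 ± 0.17, adjusted p = 0.286) were not called. Also called were Pimreg (1.18 ± 0.24) and the replication-dependent histone H2ac4 (1.48 ± 0.3). H2ac4 has near-identical copies and a naive mean of 5.66, under the dim limit, so its size is uncertain.

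**Figure D3:**
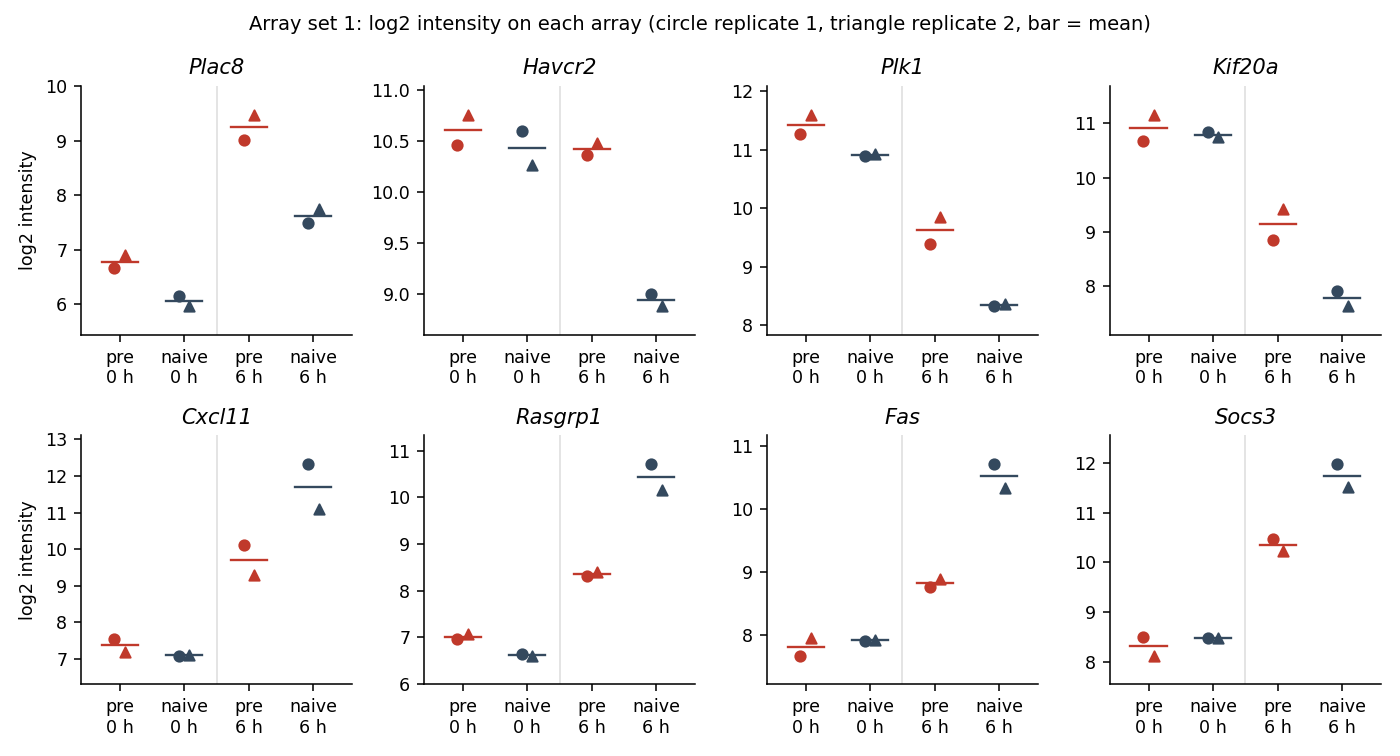
Panels show the log2 intensity of 8 genes on each array of set 1, with pretreated (red) and naive (dark) cells at 0 h and then at 6 h, circles for replicate 1, triangles for replicate 2 and bars for the means. For Havcr2 the pretreated 6 h arrays read 10.36 and 10.48 while the naive ones read 9.0 and 8.88, and for Rasgrp1 and Fas naive cells stand well above pretreated cells at 6 h after near-equal levels at 0 h.

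Rasgrp1, which activates Ras in response to diacylglycerol, was the most firmly separated gene. It read 8.31 and 8.41 in pretreated arrays at 6 h and 10.72 and 10.16 in naive arrays, a difference of -2.08 ± 0.17 (4.22-fold lower, adjusted p = 0.00078, and at most 0.0147 with any 1 of the 4 arrays left out). At 0 h Rasgrp1 had a mean of 7.01 in pretreated and 6.62 in naive cells, so both groups stood higher at 6 h and the naive cells by more. Fas, the death receptor, read 8.76 and 8.89 in pretreated and 10.71 and 10.32 in naive arrays (-1.69 ± 0.19, adjusted p = 0.00248). Il18rap, a chain of the interleukin 18 receptor, read 8.58 and 8.65 in pretreated and 10.35 and 10.2 in naive arrays (-1.66 ± 0.19, adjusted p = 0.00248). In all 3 genes the pretreated arrays lay close together and over a log2 unit below both naive arrays. Trim13, a ubiquitin ligase, differed from them in that pretreated cells stood slightly under their 0 h level, with 8.56 and 8.87 at 6 h against 10.65 and 10.36 in naive arrays (-1.79 ± 0.18, adjusted p = 0.00175) and a pretreated mean of 9.06 at 0 h. Csrnp1 (-1.28 ± 0.15) and 4930523C07Rik (-1.4 ± 0.16), named after their values were seen, kept their calls in the same way.

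The largest lower differences belonged to genes with larger standard errors. Egr2, a zinc-finger transcription factor of the early growth response family, had 7.85 and 7.72 in pretreated and 10.27 and 10.19 in naive arrays (-2.45 ± 0.43, 5.45-fold lower, adjusted p = 0.0301). Clec4e, the receptor Mincle for mycobacterial glycolipid, had 10.03 and 9.32 in pretreated and 12.63 and 11.43 in naive arrays (-2.36 ± 0.33, adjusted p = 0.0129). Naive replicate 1 stood more than a log2 unit above replicate 2 for Clec4e, and yet both naive arrays lay above both pretreated ones. The gap junction gene Gja1 (-2.04 ± 0.38) and Procr, the receptor of protein C (-1.87 ± 0.37), showed the same wide naive pair. The prostaglandin E2 receptor Ptger4 (-1.68 ± 0.25), the lysophosphatidic acid receptor Lpar1 (-1.74 ± 0.21) and the transcription factor Hivep2 (-1.55 ± 0.31) were also lower. C1s1, a protease of the complement C1 complex, had 5.75 and 6.01 in pretreated and 8.02 and 7.51 in naive arrays (-1.88 ± 0.2, adjusted p = 0.00175), and the clotting initiator F3 was at -1.61 ± 0.31. The pretreated means of C1s1 and F3 lay under the dim limit, so the size of their differences is uncertain. C1s1 apart, each gene of this paragraph lost its call in 2 or 3 of the 4 fits with a 6 h array left out.

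Chemokine genes did not move as a group. Of 22 measured, 1 was called higher and 2 lower, with a median of -0.12. Cxcl2, which attracts neutrophils, had 6.66 and 6.36 in pretreated arrays at 6 h and 9.19 and 8.59 in naive arrays (-2.38 ± 0.43, adjusted p = 0.0313). The lower pretreated array lay under the dim limit, so the size for Cxcl2 is uncertain. Cxcl11, a ligand of CXCR3, had 10.12 and 9.29 in pretreated and 12.33 and 11.09 in naive arrays (-2.01 ± 0.33, adjusted p = 0.0224). The other CXCR3 ligands were not called, with Cxcl9 at 13.45 and 13.56 in pretreated and 13.64 and 13.7 in naive arrays (-0.17 ± 0.17, adjusted p = 0.892). Cxcl10 was at -0.49 ± 0.28 (adjusted p = 0.553). Both stood near the top of the scale, where Actb had means of 14.16 in pretreated and 14.18 in naive cells, so the size of their differences is uncertain. Ccl6, a chemokine of myeloid cells, was higher, at 11.59 and 11.62 in pretreated and 10.91 and 10.97 in naive arrays (0.67 ± 0.11, adjusted p = 0.0235). The list held no call without pretreated replicate 2 or without naive replicate 1, 1 lower call without pretreated replicate 1, and 1 higher and 3 lower calls without naive replicate 2.

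Among signalling genes the calls were single members of their lists. Of 26 measured JAK-STAT and IRF genes, Socs3, a suppressor of cytokine signalling, was the only one called, with 10.47 and 10.24 in pretreated and 11.98 and 11.51 in naive arrays (-1.39 ± 0.21, 2.62-fold lower, adjusted p = 0.015). Its relative Socs1 was not called, with 11.34 and 11.45 in pretreated and 11.42 and 11.41 in naive arrays (-0.02 ± 0.15, adjusted p = 0.998). The kinase Jak2 was at -0.8 ± 0.18 (adjusted p = 0.0658) and the transcription factor Irf1 at -0.11 ± 0.15 (adjusted p = 0.953). Of the 26 JAK-STAT and IRF genes, 6 had an unadjusted p under 0.05 in limma. With the half-set block 1 of them was called higher and 3 lower. Of 27 NF-kB and TLR pathway genes, Nfkbia, the inhibitor of NF-kB, was called lower (11.58 and 11.36 in pretreated against 12.97 and 12.66 in naive arrays, -1.34 ± 0.24, adjusted p = 0.0313). Only 5 of the 27 differences were positive, the median was -0.33 and 16 genes had an unadjusted p under 0.05, but the related inhibitors Nfkbib (-0.25 ± 0.15, adjusted p = 0.601), Nfkbie (-1.7 ± 0.44, adjusted p = 0.106) and Tnfaip3 (-1.39 ± 0.32, adjusted p = 0.0738) were not called. Without naive replicate 2 that list held 3 lower calls, and without any other 6 h array it held none. With the half-set block it held 1 higher and 9 lower.

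Of 25 measured macrophage activation effectors, 2 were called lower, Clec4e and the prostaglandin E synthase Ptges (-0.81 ± 0.15), and the median was -0.28. With the half-set block 6 were called lower. The count was 6 without naive replicate 2, 1 without pretreated replicate 1 and 0 without pretreated replicate 2 or naive replicate 1. The nitric oxide synthase Nos2 (-0.7 ± 0.48, adjusted p = 0.703) rested on 1 array, with 8.6 and 8.14 in pretreated and 10.19 and 7.95 in naive cells. Gch1, which makes the cofactor of nitric oxide synthase (-1.45 ± 0.33, adjusted p = 0.0738), the adhesion molecule Vcam1 (-2.07 ± 0.52, adjusted p = 0.0948) and the costimulator Cd40 (-1.22 ± 0.32, adjusted p = 0.109) were not called either. None of 36 cytokine and cytokine receptor genes was called by limma (13 at an unadjusted p under 0.05), with Tnf at -1.65 ± 0.65 (adjusted p = 0.303) and the anti-inflammatory Il10 at 1.36 ± 0.35 (adjusted p = 0.103). With the half-set block that list held 2 higher and 1 lower. Of 24 cell death and inflammasome genes, Fas and Cflar, an inhibitor of its caspase (-1.2 ± 0.21), were lower. Among 31 immediate early and heat shock genes, Egr2 and Ier3 (-1.32 ± 0.2) were lower. Of 18 NRF2 and oxidative stress genes, the mitochondrial dismutase Sod2 (-0.86 ± 0.15) was lower. Cflar, Egr2, Ier3 and Sod2, like Socs3 and Nfkbia, kept the call in 1 of the 4 fits with a 6 h array left out.

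Interferon-inducible GTPases, type I interferon-stimulated genes and MHC class I genes had no call in either direction. Of 10 measured interferon-inducible GTPases (of 20 listed, most of the others on features shared by several genes) none was called, and the median was -0.1, close to that of all genes. They stood near the top of the scale, with a median level of 12.59 in pretreated and 13.0 in naive cells. Iigp1, a GTPase of pathogen vacuoles, read 12.9 and 13.04 in pretreated and 13.03 and 13.26 in naive arrays (-0.18 ± 0.27, adjusted p = 0.965). Gbp5 was at -0.44 ± 0.35 (adjusted p = 0.784) and Gbp2b at 0.93 ± 0.4 (adjusted p = 0.358). None of 39 type I interferon-stimulated genes (median -0.12) and none of 16 MHC class I presentation genes (median 0.01) was called by limma. At an unadjusted p under 0.05 the counts were 2 of 10 GTPases, 6 of 39 and 1 of 16. These 3 lists also held no call with the half-set block.

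MHC class II genes leaned upward without a call. All 9 measured differences were positive, with a median of 0.65, and 1 had an unadjusted p under 0.05 in limma. H2-Eb1 had 12.3 and 11.67 in pretreated and 11.25 and 9.79 in naive arrays (1.46 ± 0.7, adjusted p = 0.432), and H2-Aa had 12.79 and 12.23 in pretreated and 11.9 and 10.45 in naive arrays (1.33 ± 1.38, adjusted p = 0.896). Both pretreated arrays lay above both naive arrays for each, but the naive pair was over a log2 unit apart, and the median was 0.34 without naive replicate 2 and 0.95 without naive replicate 1. The transactivator Ciita was at 0.77 ± 0.54 (adjusted p = 0.716). Over the 9 genes the median difference was larger before 6 h. It was 1.48 at 0 h in array set 1, 1.62 at 0 h over both sets and 1.27 at 3 h, on other arrays. None of 26 genes of cholesterol synthesis and export was called by limma (8 at an unadjusted p under 0.05), with Idi1 at -1.92 ± 0.58 (adjusted p = 0.16) and Sqle at -1.44 ± 0.66 (adjusted p = 0.404). Their median of -0.47 was 0.03 without naive replicate 1 and -1.03 without naive replicate 2, and with the half-set block 1 was called higher and 7 lower. Without the block, limma also made no call among 25 genes of glycolysis (1 at an unadjusted p under 0.05), 28 serine and Atf4 targets (3), 15 iron genes (4), 22 of lysosome and autophagy (2), 27 of adhesion (8) and 28 of scavenging and macrophage identity (0). With the half-set block the adhesion list held 1 higher and 5 lower calls. Serine and Atf4 targets and iron genes then held 1 higher and 1 lower each, and lysosome and autophagy 1 higher. In the remaining lists the calls were genes already named: Slamf9 and Havcr2 among 27 NKG2D, SLAM and costimulation genes (median 0.07), Egr2 among 24 genes of alternative activation (-0.08), C1s1 among 15 of complement (0.05) and Clec4e among 31 C-type lectin and Fc receptors (0.03). Of the 27, 9 had an unadjusted p under 0.05 in limma, and with the half-set block 3 were called higher and 3 lower. That block gave 1 higher and 1 lower call in alternative activation, and 1 higher and 2 lower among the C-type lectin and Fc receptors.

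**Figure D4:**
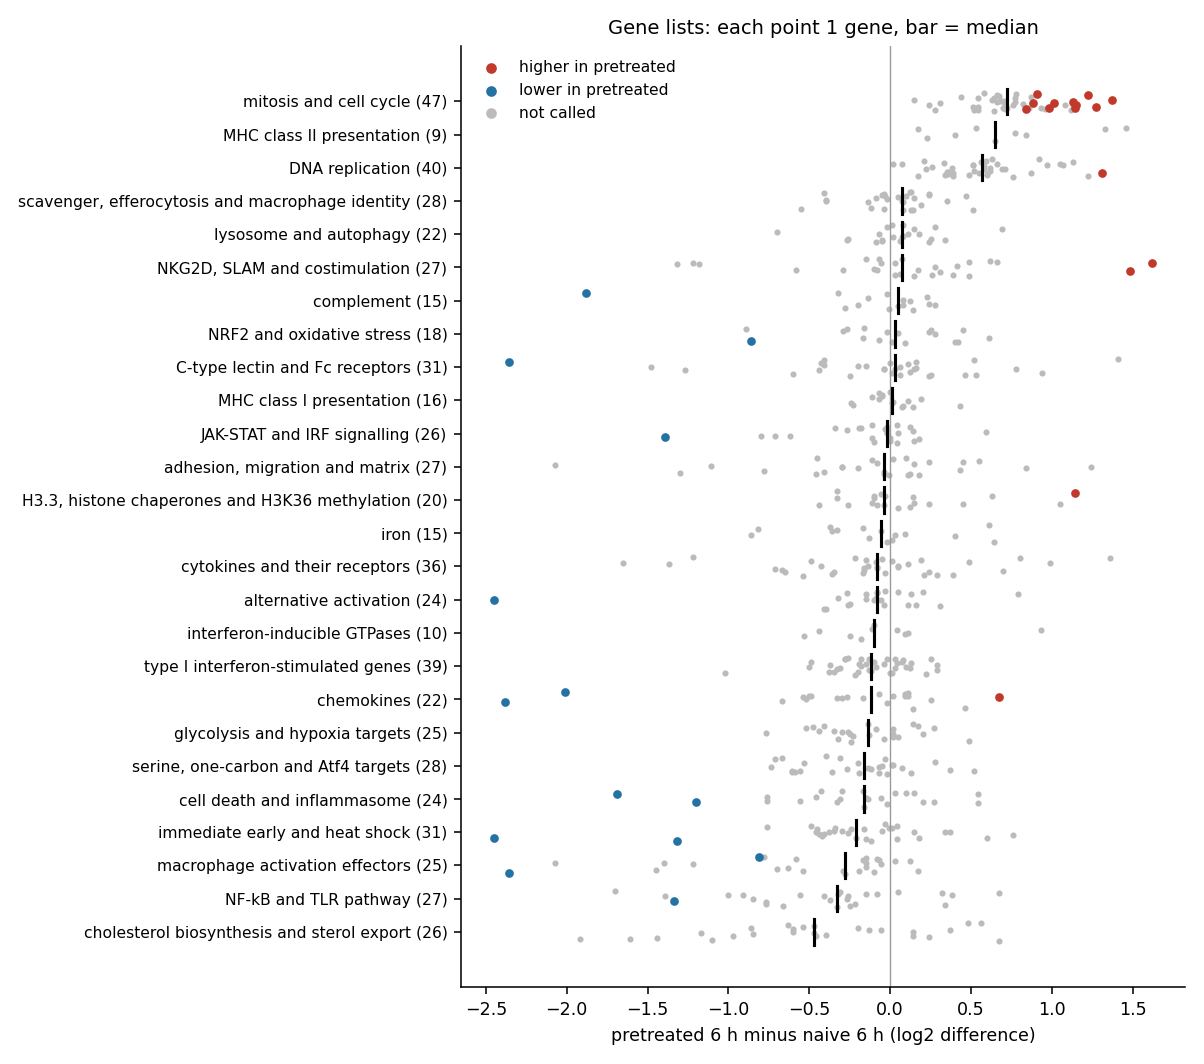
Each point is 1 measured gene of a list, with the number measured in brackets, its log2 difference of pretreated 6 h minus naive 6 h on the x axis, and a bar for the list's median. The mitosis, MHC class II and DNA replication lists sit to the right, with medians of 0.72, 0.65 and 0.57, and calls (red higher, blue lower) are few or absent in the other lists.

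Part of the difference could already be there before the second stimulation, so the 6 h calls were set beside 0 h and 3 h, where pretreated and naive cells were compared on arrays not used at 6 h. At 0 h, with 4 arrays a group, pretreated cells had 161 genes (0.808%) above and 31 genes (0.155%) below naive cells. Of the 86 genes higher at 6 h, 58 (67.4%) had a positive difference at 0 h, against 55.8% of all genes. Only Slamf9, Cysltr2 and Ocstamp were called higher at both times, 3.49% of the 6 h list and 1.86% of the 0 h list. Of the 54 lower genes 27 (50.0%) had a negative difference at 0 h, against 44.2% of all genes. Of these, Cbr2, Bmp2 and Ctla2a were called at both times, 5.56% of the 6 h list and 9.68% of the 0 h list. At 3 h, 2 genes (0.01%) were higher and 1 gene (0.00502%) lower. There the sign matched for 63 of the 86 (73.3%, against 50.3% of all genes) and 38 of the 54 (70.4%, against 49.7%).

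Slamf9 and Cysltr2 kept a near-constant gap. The difference for Slamf9 was 1.49 at 0 h (adjusted p = 0.00242), 1.5 at 3 h (adjusted p = 0.25) and 1.62 at 6 h, and for Cysltr2 it was 1.59 at 0 h (adjusted p = 0.000924), 1.44 at 3 h (adjusted p = 0.241) and 1.38 at 6 h. Naive Cysltr2 at 0 h had a mean of 5.92, under the dim limit. Cbr2, a carbonyl reductase, was the only gene called lower at all 3 times, by -1.88 at 0 h (adjusted p = 8.23e-06), -2.45 at 3 h (adjusted p = 0.000264) and -1.11 ± 0.19 at 6 h. It read 8.27 and 8.56 in pretreated and 9.39 and 9.65 in naive arrays at 6 h. Bmp2, a growth factor, was at -0.94 at 0 h and -1.4 ± 0.23 at 6 h. The 6 h pretreated mean of Ctla2a lay under the dim limit.

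Whether the gap at 6 h differed from that at 0 h was tested on the arrays of set 1. The difference at 6 h was above that at 0 h for 6 genes (0.0301%) and below it for 23 (0.115%), by limma after Benjamini-Hochberg adjustment. This test shares the 6 h arrays with the comparison above, so its calls are no separate support for it. The first kind of gene was level at 0 h and apart at 6 h, such as Rasgrp1, with a change in the difference of -2.47 ± 0.25 (adjusted p = 0.00214). Havcr2 (1.3 ± 0.22, adjusted p = 0.049) and Lpxn (1.14 ± 0.18, adjusted p = 0.0275) were examples in the other direction. The second kind was apart at 0 h and not called at 6 h. Cxcl9 had a mean of 11.6 in pretreated and 6.55 in naive cells at 0 h and of 13.5 and 13.67 at 6 h, so that the difference dropped by 5.22 ± 0.24 on the log2 scale (adjusted p = 6.65e-07). The 6 h levels of Cxcl9 lay near the top of the scale and the naive 0 h level near the dim limit, so the size of this change is uncertain.

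Other interferon targets of the second kind were the GTPases Iigp1 (-3.78 ± 0.38) and Gbp4 (-4.16 ± 0.59), Acod1, which makes itaconate (-2.77 ± 0.39), factor B of complement, Cfb (-2.55 ± 0.37), and the peptide transporter Tap1 (-1.38 ± 0.17). Acod1 stood at 11.28 in pretreated and 9.09 in naive cells at 0 h and at 12.99 and 13.57 at 6 h. At 6 h Iigp1 stood at 12.97 in pretreated and 13.15 in naive cells, Gbp4 at 13.01 and 12.97 and Tap1 at 12.76 and 12.74. Like Acod1, these 6 h levels lay near the top of the scale, so the size of these changes is uncertain. Naive Gbp4 at 0 h also had a mean of 6.41, under the dim limit.

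The third kind stood lower in pretreated cells at 0 h in set 1 and higher, without a call, at 6 h. Gm10874, a predicted gene, had the largest positive change of all called here, 2.67 ± 0.37 (adjusted p = 0.018). It read 9.96 and 10.44 in pretreated and 9.35 and 8.94 in naive arrays at 6 h, and 7.81 and 8.09 in pretreated and 9.18 and 9.95 in naive arrays at 0 h. Ptger1, a receptor of prostaglandin E2, changed by 1.43 ± 0.18 (adjusted p = 0.0108) and 4930404N11Rik by 1.15 ± 0.2 (adjusted p = 0.0496). Their differences at 0 h were -1.61 for Gm10874, -0.89 for Ptger1 and -0.66 for 4930404N11Rik in set 1, but 0.04, -0.15 and -0.04 in the same order in set 2, so the gap at 0 h was not seen in the other set. The last of the 6 genes, Nt5dc2, was called higher at 6 h (0.64 ± 0.11) and stood at -0.35 at 0 h. Rasgrp1, Cxcl9, Iigp1 and Gm4951 passed with any 1 of the 8 arrays of set 1 left out. With single arrays left out, the count of 23 became 4 for either pretreated 6 h array and for the first naive 6 h array, and 98 for the second one. It became 14 and 5 for naive 0 h replicates 1 and 2 and 8 for pretreated 0 h replicate 2. The count of 6 became 0 for either pretreated 6 h array, for the first naive 6 h array and for naive 0 h replicate 2, and 59 for the second naive 6 h array. It became 1 to 3 for pretreated 0 h replicates 2, 3 and 4 and for either naive 3 h array.

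Set side by side, the higher genes were mostly ones whose level at 6 h lay under that at 0 h, and the lower genes ones whose level lay above it. Over the 86 higher genes the median change from 0 h to 6 h was -0.57 in pretreated and -1.4 in naive cells. Over the 54 lower genes it was 0.34 in pretreated and 1.42 in naive cells. These changes share arrays with the 6 h comparison, and no test is drawn from them. Both medians lay nearer to 0 in the pretreated cells. Picking genes by their 6 h difference largely fixes the order of the pretreated and naive changes where the 0 h gap is small. The median 0 h difference over both sets was 0.09 for the higher and -0.01 for the lower genes.

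Promoter windows of the called genes were read from RefSeq (GRCm38.p6), as the 250 bases before the first listed start. Windows were found for 72 of the 86 higher, 50 of the 54 lower and 15563 of all genes tested. The GAS letters TTCNNNGAA stood in 9 lower windows (18%) and 3 higher windows (4.17%), against 6.71% of all. The 9 belonged to Rasgrp1, Fas, Socs3, Sod2, Ctla2a, 4930523C07Rik, Chrna5, Paf1 and Rhoq. The ISRE (GAAA, any pair of bases, GAAA), bound by IRF and ISGF3 proteins, were in none of the lower and 2.78% of the higher windows, against 2.92% of all. Letters known from promoters of cell cycle genes were in a larger share of the higher windows: CCAAT in 48.6% of the higher and 26.0% of the lower, against 35.5% of all, and the CHR letters TTTGAA in 20.8% of the higher and 6.0% of the lower, against 13.7% of all. The AP-1 letters TGANTCA were in 5.56% of the higher and 10.0% of the lower (6.09% of all), TGACGTCA in 1.39% of the higher and none of the lower (2.13% of all), and TATAAA in 5.56% of the higher and 10.0% of the lower (11.2% of all). Both strands were searched, overlaps between motifs were allowed, and a match is a description of letters only.

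The windows of Plac8 and Slamf9, among the genes with the largest higher differences, of Egr2 and Cxcl2, with the largest lower ones, and of Cdk1 and Socs3, chosen after their motifs were seen, are given 5′ to 3′ on the strand of the gene. Capitals mark the letters searched for, which are CCAAT (or ATTGG) in Plac8 and Cdk1, TTTGAA in Cdk1 and TTCNNNGAA in Socs3. Slamf9, Egr2 and Cxcl2 held none of the searched letters. Plac8 lies on the minus strand (chr5:100572206-100572455), Slamf9 on the plus strand (chr1:172475110-172475359), Egr2 on the plus strand (chr10:67535249-67535498), Cxcl2 on the plus strand (chr5:90903649-90903898), Cdk1 on the minus strand (chr10:69352913-69353162) and Socs3 on the minus strand (chr11:117969367-117969616).
Plac8: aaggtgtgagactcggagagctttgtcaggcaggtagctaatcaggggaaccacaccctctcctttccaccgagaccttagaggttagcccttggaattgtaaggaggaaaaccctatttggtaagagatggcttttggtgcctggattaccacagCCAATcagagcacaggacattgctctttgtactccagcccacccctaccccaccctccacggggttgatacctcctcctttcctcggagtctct
Slamf9: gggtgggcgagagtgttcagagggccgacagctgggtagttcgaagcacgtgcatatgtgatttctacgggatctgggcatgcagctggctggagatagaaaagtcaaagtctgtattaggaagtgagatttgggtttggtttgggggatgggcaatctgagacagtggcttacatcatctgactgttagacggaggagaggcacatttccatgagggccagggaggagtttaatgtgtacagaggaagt
Egr2: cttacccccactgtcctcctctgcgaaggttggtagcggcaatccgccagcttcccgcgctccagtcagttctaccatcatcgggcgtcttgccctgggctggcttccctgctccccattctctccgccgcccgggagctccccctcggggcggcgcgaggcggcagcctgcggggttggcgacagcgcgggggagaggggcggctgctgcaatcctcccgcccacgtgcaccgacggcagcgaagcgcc
Cxcl2: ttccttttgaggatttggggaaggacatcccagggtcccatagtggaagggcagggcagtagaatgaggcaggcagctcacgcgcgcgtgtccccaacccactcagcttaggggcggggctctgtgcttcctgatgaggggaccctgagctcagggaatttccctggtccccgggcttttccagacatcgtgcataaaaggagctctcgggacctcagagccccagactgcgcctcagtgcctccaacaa
Cdk1: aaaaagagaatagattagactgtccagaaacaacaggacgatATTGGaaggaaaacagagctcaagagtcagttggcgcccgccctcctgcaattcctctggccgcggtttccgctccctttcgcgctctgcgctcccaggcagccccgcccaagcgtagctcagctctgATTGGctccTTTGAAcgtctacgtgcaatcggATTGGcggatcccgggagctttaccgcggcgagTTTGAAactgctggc
Socs3: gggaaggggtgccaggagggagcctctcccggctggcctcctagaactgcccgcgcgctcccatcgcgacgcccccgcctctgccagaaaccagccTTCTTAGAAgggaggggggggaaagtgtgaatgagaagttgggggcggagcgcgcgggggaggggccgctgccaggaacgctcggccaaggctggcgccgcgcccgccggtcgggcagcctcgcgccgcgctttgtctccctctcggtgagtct
Counted back from -1 at the base before the start, the CCAAT letters of Plac8 begin at -94. Cdk1, called higher by 1.01 ± 0.19, holds 3 copies of ATTGG and 2 of TTTGAA, and the GAS letters of Socs3 begin at -154.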

How the data were processed

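Values were log2 intensities of Affymetrix mouse gene arrays, deposited by the authors. Per the labels, total RNA was biotin-labelled by the Affymetrix protocol. How they were background-corrected, normalized and summarised is not given in the sources used here. Array medians were 7.151 to 7.226 in set 1 and 6.886 to 6.997 in set 2, so every contrast stayed within a set. Precision is limited by the array number, 2 per group at 6 h. No 2 arrays were identical.

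Of 35557 features, 21789 had 1 gene symbol in the platform annotation (21698 matched the RefSeq gene table by gene ID), 1621 had several and 12147 none. For 999 genes with several features the brightest was used, which left 19938 genes. Isg15 and H3f3b are not analysed here, and 1 further item is not reported here. limma 3.58.1 (R 4.3.3) fitted 1 mean per group and array set over all 16 arrays (8 residual, 4.26 prior degrees of freedom), with Benjamini-Hochberg adjustment over all genes. Genes with a mean under 6.5 were called dim. The limit was set here, without detection calls. The fit was tested on simulated data. Figures used matplotlib 3.10.9, with pandas 2.3.3 and numpy 2.4.6 in Python 3.11.15.

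The comparison, the 26 gene lists (667 members, 614 measured) and the motifs were chosen with earlier results of these data known. Named genes came from a rule. It took the 15 largest differences in each direction among called genes whose arrays did not overlap, and up to 4 members of each list. A fixed set of interferon, cytokine, histone and other macrophage genes was added. The rule gave 180 genes, of which only some are named here. Lpxn, Kif18b, Csrnp1, 4930523C07Rik, Ptges, Ccna2, Cdk1, Cdca3, Cdca5, Ect2, Ube2c, Cbr2, Bmp2, Ctla2a, Bub1, Gbp4, Zbp1, Tap1, Slamf8, Foxm1, Tlr8, Tlr13, Gm4951, Gm10874, Ptger1, 4930404N11Rik, Nt5dc2, Nfkbib and the genes named for a motif fall outside it and were chosen after their values were seen. Alternatives were fits to the 6 h arrays or to set 1 alone, a half-set block, a dim filter, all features or their mean, 2 normalizations, a 2-fold limit, eBayes with trend and robust and each array left out. An alternative with array weights was chosen after seeing the data.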

Additional observations from a re-analysis of the deposited data

Results flagged for a closer look

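The gap between pretreated and naive cells differed between 6 h and 0 h in set 1 for 6 genes with a larger and 23 with a smaller signed difference at 6 h, by limma's test of the 2 differences. Genes that stood level at 0 h and apart at 6 h had values, 6 h minus 0 h difference, of 1.3 for Havcr2, 1.14 for Lpxn, -2.47 for Rasgrp1, -2.07 for C1s1, -2.01 for Lpar1, -1.84 for Il18rap, -1.64 for Trim13, -1.6 for Fas, -1.49 for Csrnp1 and -1.4 for 4930523C07Rik. Genes lower in pretreated cells at 0 h in set 1 and higher at 6 h had 2.67 for Gm10874, 1.43 for Ptger1, 1.15 for 4930404N11Rik and 0.99 for Nt5dc2, of which Nt5dc2 alone was called at 6 h. Genes that stood higher in pretreated cells at 0 h and near naive cells at 6 h had -5.22 for Cxcl9, -4.16 for Gbp4, -3.78 for Iigp1, -2.77 for Acod1, -2.7 for Gm4951, -2.55 for Cfb, -2.53 for the receptor Slamf8, -1.74 for the nucleic acid sensor Zbp1 and -1.38 for Tap1. Cfb apart, their 6 h means were 12.32 or more in both groups, toward the top of the scale, so the size of these changes is uncertain. Rasgrp1, Cxcl9, Iigp1 and Gm4951 passed with any 1 of the 8 arrays of set 1 left out, while the largest adjusted p of the other named genes in those fits ran from 0.0721 for Tap1 to 0.335 for 4930404N11Rik.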

How the results depend on the processing

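Counts of genes higher and lower in pretreated cells at 6 h were 13 and 9 in a fit to the 4 arrays alone, 13 and 16 with set 1 alone, 34 and 20 over all features, 32 and 35 with the 2-fold limit, and 355 and 217 with array weights. Quantile normalization again gave 85 lower genes. With the half-set as a block, the first against the second run of title numbers, they were 556 and 289. The labels hold no replicate numbers, so the half-set is not part of the stated design. The difference between half-sets correlated across genes at 0.42 between the 2 groups at 6 h. Leaving out any 1 of the 16 arrays gave 6 to 192 higher and 7 to 214 lower genes. The other alternatives kept both counts within 1.5 times. Counts of genes with a difference above and below that at 0 h were 0 and 14 with set 1 alone, 161 and 141 with the half-set block, 18 above over all features, and 0 to 59 and 4 to 98 with 1 array left out. Fits to the 4 arrays or to set 1 alone use fewer samples for the variance. For the other alternatives the cause was not tested.

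Of 56 called genes in the text, 40 lost the call in the fit to the 4 arrays, 32 with set 1 alone, 31 over all features, 8 with arrays centred on their medians, 1 with trend and robust, and 2 to 44 with 1 array left out. The 2-fold limit left out 11. Of 36 uncalled genes in the text, 15 were called with the half-set block, 10 with array weights, 8 without naive 6 h replicate 2 and 1 with quantile normalization again or with trend and robust. None of the 56 turned its sign under these alternatives. Among uncalled genes, Irf1 was at 0.18 with the mean of its features, Nos2 ran from -1.82 to 0.42 and Slamf8 from -0.02 to 0.53 with 1 array left out, Tap1 was at -0.01 and Socs1 at 0.0 after quantile normalization again, and with 1 array left out Tap1 ran from -0.04 to 0.08, Socs1 from -0.08 to 0.03 and Gm4951 from -0.1 to 0.05. Levels under 6.5 and the number of arrays limit what could be seen.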
